A study of Drosophila melanogaster with 8 samples.

Results

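Late wandering larvae of Drosophila melanogaster, taken whole and labelled as recombinants that carry both Hsp90GFP and hsromega66, were compared with wild-type larvae across 8128 genes, of 15904 rows in the authors' deposited table. A gene entered when its row held a single symbol, its test status was OK and it reached at least 5 FPKM in either group, where FPKM counts sequenced fragments per length of gene and per depth of library. Of the 8128 genes, 6265 reached that level in both groups, 805 in the libraries labelled as the recombinant only and 1058 in WT only. A gene that passed through a single group had to differ, so such genes are counted apart below. Just inside the minimum, 229 genes had their higher level between 5 and 5.5 FPKM and 10 of them were called. Just outside it, 268 rows lay between 4.5 and 5 FPKM and 14 were called.

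The labelled recombinant had the genotype w1118; Sp/CyO'; hsp90GFP hsromega66, the single-genotype stocks hsromega66 and Hsp90GFP were labelled with the same w1118; Sp/CyO' background, and WT was Oregon R+. hsromega66 is a near-null allele of the long non-coding RNA gene hsromega, and Hsp90GFP is described as over-expressing Hsp83, the gene of the Hsp90 chaperone in flies. Genotype and strain background therefore cannot be told apart in a comparison with WT. Each group had 2 libraries of 5 pooled whole larvae, and the deposited tables give 1 FPKM per gene and group, so levels carry no spread between libraries, and the read depth is unknown. Nothing in the labels says that the 2 pools of a group came from separate cultures.

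In the last larval instar a rise of the steroid hormone ecdysone ends feeding and starts wandering. It turns on storage proteins in the fat body and glue proteins in the salivary gland, and it prepares the cuticle for the pupal case. The hsromega RNA gathers RNA-binding proteins in nuclear omega speckles, and Hsp90 folds many signalling proteins, among them kinases and steroid receptors.

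The targeted genes did not both follow the label. Hsromega was at 77.9 FPKM in the labelled recombinant, 0.767 FPKM in hsromega66, 273 FPKM in Hsp90GFP and 236 FPKM in WT. Its level in the labelled recombinant was thus 32.99% of WT rather than near 0. It was not called against WT (q = 0.629 in the authors' deposited table). Against hsromega66 it was called higher (q = 0.00144 in the authors' deposited table). Hsp83 was at 968 FPKM in the labelled recombinant, 427 in hsromega66, 1616 in Hsp90GFP and 371 FPKM in WT, and was not called. Other genes whose level differs between the stocks did not all side with 1 of the single-genotype stocks. Lsp1gamma, a larval serum protein subunit, was at 8541 FPKM in the labelled recombinant, against 12858 FPKM in WT, while hsromega66 had 2.1 and Hsp90GFP 1.62 FPKM. The non-coding RNA CR40469 was low in the labelled recombinant and hsromega66 (26.9 and 19.3 FPKM) and high in Hsp90GFP and WT (4742 and 3884 FPKM). The name "the labelled recombinant" below stands for the 2 libraries with that label, whatever they carry.

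Of the 8128 genes, 846 were called (10.4%). Called means here a q under 0.05 in the authors' deposited table. Of the called genes 541 were higher (6.66%) and 305 lower (3.75%) in the labelled recombinant than in WT. Among the 6265 genes at 5 FPKM or more in both groups, 435 were called (6.94%), 336 higher (5.36%) and 99 lower (1.58%). An unadjusted p under 0.05 was given for 1593 of the 8128 genes. The called genes ran over a wide range of size: the smallest absolute log2 ratio called was 1.55 and the median was 3.15, against a median standard error of 0.895 implied by the authors' test statistic. A log2 ratio under 1.55 in size was not called in any gene. The median log2 fold of all 8128 genes was 0.07, taken as log2(FPKM + 1), with the middle of the distribution between -0.46 and 0.71. Large differences often missed the call: 106 genes at least 10-fold higher and 126 at least 10-fold lower on the FPKM + 1 scale were not called.

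**Figure D1:**
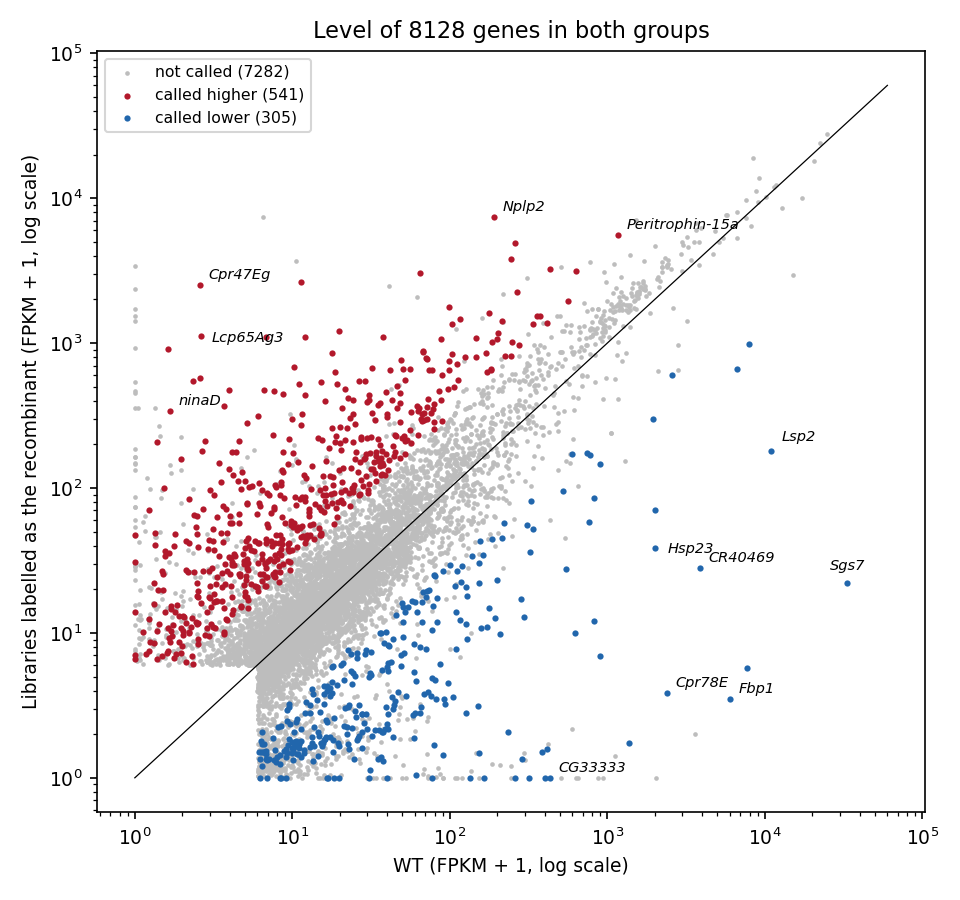
Level of each of the 8128 genes in WT (x axis) and in the labelled recombinant (y axis), both as FPKM + 1 on log scales, with 541 genes called higher in red, 305 called lower in blue and the others in grey; the line marks equal levels. The empty corner at low levels is the minimum of 5 FPKM in either group, and the named genes stand far from the line on both sides.

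The share of called genes depended on the level. Of genes whose higher group was at 5 to 10 FPKM, 1.96% were called higher and 2.74% lower. At 200 to 1000 FPKM, 25% were called higher and 5.59% lower, and at 1000 FPKM or more 12.4% were called higher and 5.2% lower. Of 154 genes at 1000 FPKM or more in WT, 13 fell and 1 rose. Of 223 genes at that level in the labelled recombinant, 31 rose, and both directions follow in part from choosing genes by their level in that group. The 10 most abundant single-symbol genes took 14.5% of the summed FPKM of tested genes in the labelled recombinant and 20.3% in WT.

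Among the genes that respond to ecdysone, 12 of 16 had lower levels in the labelled recombinant than in WT. Of these, 5 fell and 0 rose, the median log2 fold over the list came to -1.44, and 6 members passed the minimum through WT only. ImpE2, a secreted ecdysone-inducible protein of the imaginal discs, was at 0.493 FPKM in the labelled recombinant, against 152 FPKM in WT, a 308-fold fall (95% interval 65.5 to 1448). Eip78C, a nuclear receptor of the ecdysone cascade, was at 0.350 FPKM in the labelled recombinant, against 23.7 FPKM in WT, and the ABC transporter E23 fell to 1.24 FPKM in the labelled recombinant, against 21.2 FPKM in WT. The early transcription factor Eip74EF was at 4.29 FPKM in the labelled recombinant, against 30.3 FPKM in WT, a 7.06-fold fall (2.35 to 21.2). The other early genes were not called: br, the Broad transcription factor of the larval-pupal switch, was at 9.06 FPKM in the labelled recombinant, against 135 FPKM in WT (q = 0.0738 in the authors' deposited table), EcR, the ecdysone receptor, at 19.4 FPKM in the labelled recombinant and 62.9 FPKM in WT, and Eip75B at 15.7 FPKM in the labelled recombinant and 32.4 FPKM in WT. The later nuclear receptor gene ftz-f1 lay the other way, at 10.04 FPKM in the labelled recombinant and 2.58 FPKM in WT (q = 0.0520 in the authors' deposited table), without a call.

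Of 10 members of the ecdysone synthesis list, 9 were below WT, and 4 passed the minimum through WT only and so had to be lower. The 1 called (10%, beside 10.4% of all 8128 genes) was spok, an enzyme gene of the prothoracic gland. spok, 1 of these 4, was at 1.42 FPKM in the labelled recombinant, against 15.5 FPKM in WT (10.9-fold lower, 2.999 to 39.7). The ring gland markers phm, dib and sad summed to 2.04 FPKM in the labelled recombinant, against 11.1 FPKM in WT, and dib lay under 1 FPKM in both. Of 9 juvenile hormone genes, 3 rose and 0 fell. Jheh1 and Jheh3, epoxide hydrolases that break down juvenile hormone, rose 5.33-fold and 4.99-fold, and JhI-26, a juvenile-hormone-inducible gene, rose 8.19-fold to 119.8 FPKM. JhI-26 was at 53.3 FPKM in hsromega66 and 80.5 FPKM in Hsp90GFP. In the labelled recombinant it was called against neither of these stocks, whereas Jheh1 and Jheh3 were called against both. Kr-h1, the transcription factor through which juvenile hormone acts, was at 8.82 FPKM in the labelled recombinant and 19.3 FPKM in WT, without a call.

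The salivary glue RNAs, led by Sgs7, the most abundant of all 8128 genes in WT, were nearly gone. Sgs7 (FBgn0003377, dm6 3L 11509861 to 11510247, plus strand, 2 exons) was at 21.2 FPKM in the labelled recombinant, against 33244 FPKM in WT, a 1568-fold fall (95% interval 335 to 7344). Sgs5 fell 1618-fold to 4.75 FPKM, and Eig71Ee, a late gland protein, fell 1885-fold to 0.727 FPKM. Sgs8 (1.01 FPKM in the labelled recombinant and 3623 FPKM in WT), Sgs3 (0.419 FPKM in the labelled recombinant and 1121 FPKM in WT), Sgs4 (0.718 FPKM in the labelled recombinant and 422 FPKM in WT) and Sgs1 (0.0166 FPKM in the labelled recombinant and 80.6 FPKM in WT) differed by large ratios without a call. Of the 16 genes of the glue and late gland list 4 fell, and 11 passed the minimum through WT only. The faller Eig71Ea was at 6.04 FPKM in the labelled recombinant, 9.05 in hsromega66, 4.37 in Hsp90GFP and 48.2 FPKM in WT. It was not called against either single-genotype stock. The list's median log2 fold was -3.58 against WT, -1.88 against hsromega66 and -0.30 against Hsp90GFP. The list held 0.263% of all FPKM in the labelled recombinant, 4.97% in hsromega66, 3.33% in Hsp90GFP and 5.11% in WT. The exceptions in this list were ng1, ng2 and ng3, small genes of the gland known for their expression before the glue genes. ng3 was at 2807 FPKM in the labelled recombinant, against 309.8 FPKM in WT, ng1 at 157 FPKM in the labelled recombinant and 9.53 FPKM in WT and ng2 at 143 FPKM in the labelled recombinant and 9.01 FPKM in WT, all higher in the labelled recombinant and none called (q = 0.704 for ng3 in the authors' deposited table). The ng genes and Sgs4 lie within spans of other rows, which could share their reads. In RNA of whole larvae, fewer cells of a type and less RNA per cell cannot be told apart, here or in any list below.

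The fat body RNAs did not move as a block. Fbp1, a receptor through which the fat body takes storage proteins back up (FBgn0000639, 3L 14094589 to 14098053, minus strand, 4 exons), was at 2.49 FPKM in the labelled recombinant, against 5996 FPKM in WT, a 2405-fold fall (95% interval 528 to 10947), the largest called fold of the comparison on the log2(FPKM + 1) scale. Lsp2, a larval serum storage protein, fell 61.6-fold to 178 FPKM in the labelled recombinant, against 10998 FPKM in WT. Subunits of the other serum protein were not called, with Lsp1alpha at 5287 FPKM in the labelled recombinant and 6652 FPKM in WT, and Lsp1beta at 11259 FPKM in the labelled recombinant and 8845 FPKM in WT. Rfabg, the gene of the lipid carrier apolipophorin, was at 1731 FPKM in the labelled recombinant and 1481 FPKM in WT. The related lipid transfer gene Apoltp rose 5.58-fold to 40.5 FPKM. Obp99b, an odorant-binding protein among the 10 most abundant RNAs of WT, was at 2932 FPKM in the labelled recombinant and 14995 FPKM in WT (q = 0.205 in the authors' deposited table) and was not called.

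Cuticle genes changed in both directions. Of 31 Cpr genes, which encode chitin-binding cuticle proteins, 11 rose and 5 fell, with a median log2 fold of 0.13. Cpr47Eg (FBgn0086519, 2R 11277957 to 11278445, minus strand, 2 exons) was at 2496 FPKM in the labelled recombinant, against 1.58 FPKM in WT, a rise of 1577-fold (95% interval 295 to 8436), while hsromega66 had 2.47 and Hsp90GFP 15.5 FPKM. Cpr67Fa2 rose 189-fold, Cpr47Ec 74.9-fold and Cpr11A 67.9-fold. In the other direction Cpr78E was at 2.84 FPKM in the labelled recombinant, against 2392 FPKM in WT, an 843-fold fall (183 to 3892), and Cpr49Ac fell 28.99-fold to 69.6 FPKM. The family held 0.624% of all FPKM in the labelled recombinant and 0.642% in WT, and its median turns below 0 when folds are centred on the ribosomal protein genes.

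The larval cuticle genes of the Lcp family showed the same opposition. Lcp1 and Lcp2 fell, Lcp1 to 979 FPKM in the labelled recombinant, against 7980.4 FPKM in WT (8.15-fold), and Lcp2 to 604 FPKM in the labelled recombinant, against 2559 FPKM in WT (4.24-fold). Lcp3 (19067 FPKM in the labelled recombinant and 8396 FPKM in WT) and Lcp4 (23938 FPKM in the labelled recombinant and 22544 FPKM in WT) were not called. Members of the 65A cluster rose: Lcp65Ag3 was at 1119 FPKM in the labelled recombinant, against 1.65 FPKM in WT, a 678-fold rise (136 to 3383), Lcp65Ac rose 13.6-fold and Lcp65Aa 5.24-fold. Lcp65Ag1 and Lcp65Ag2 rose as well, though reads of these near-identical copies may be split among them. Lcp65Ae (77.9 FPKM in the labelled recombinant and 0.961 FPKM in WT) was not called. TwdlP and TwdlO, Tweedle cuticle genes, were at 49.4 and 19.6 FPKM in the labelled recombinant, against 0.163 and 0.226 FPKM in WT, without a call.

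Chitin genes with a call also went both ways. obst-E and obst-A, which encode chitin-binding proteins of the cuticle, rose 9.52-fold and 4.52-fold, and the chitinase Cht4 rose 37.8-fold to 41.9 FPKM. The moulting chitinases Cht5 and Cht3 fell 5.49-fold and 16.99-fold. In all, 5 of 27 members of the chitin list rose and 2 fell.

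Most called genes of the dopamine pathway that tans the cuticle were lower. ple, tyrosine hydroxylase, the first enzyme of dopamine synthesis, was at 11.3 FPKM in the labelled recombinant, against 114.8 FPKM in WT (10.2-fold lower, 2.63 to 39.2). Ddc, dopa decarboxylase, fell 7.22-fold to 21.2 FPKM, and Pu, which makes the cofactor of ple, fell 7.54-fold to 16.9 FPKM. b and e, the genes that supply and attach beta-alanine to dopamine, were at 1.38 and 0.925 FPKM in the labelled recombinant, against 27.4 and 42.8 FPKM in WT, and yellow-e fell 3.65-fold. Dat, which acetylates dopamine, was the exception with a call and rose 5.93-fold. Several of these genes were as low in the Hsp90GFP stock: e was at 0.562 FPKM, ple at 8.07 FPKM and b at 3.63 FPKM there, while hsromega66 had 73.3, 201 and 26.6 FPKM. Of 15 members, 6 fell and 1 rose.

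**Figure D2:**
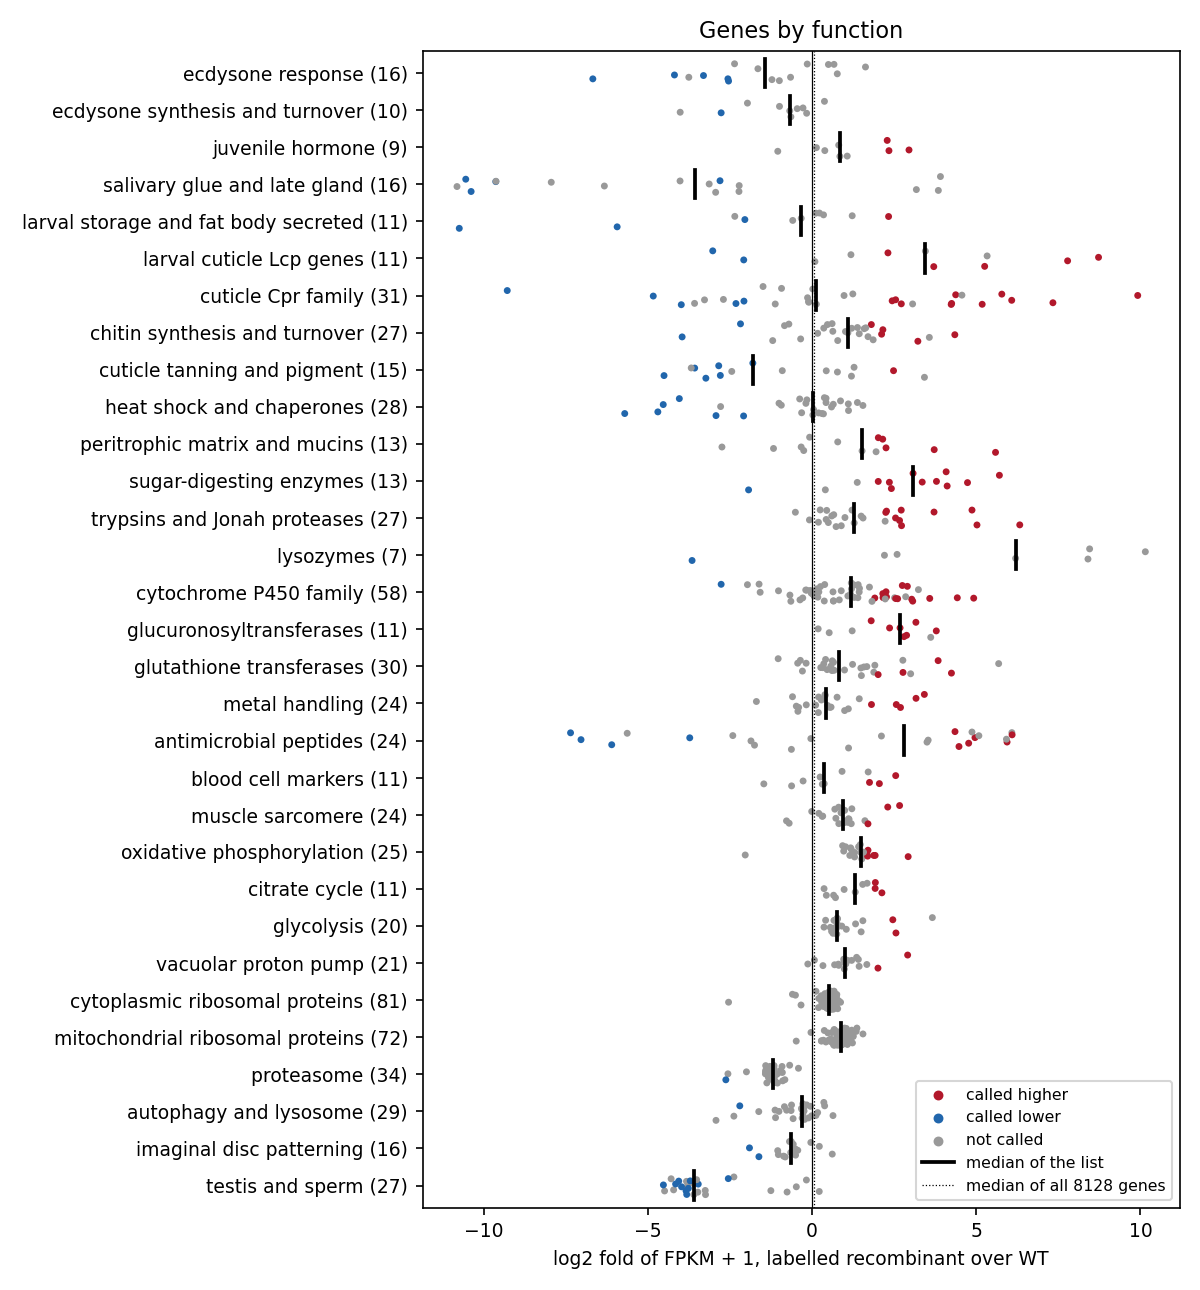
Log2 fold of FPKM + 1 (labelled recombinant over WT) of each gene in 31 functional lists, with the number of members in brackets, called genes in red (higher) and blue (lower), the list median as a black bar and the median of all 8128 genes as a dotted line. Proteasome genes all lie left of 0 and glycolysis genes all lie right of it, whereas the Cpr, Lcp and antimicrobial lists hold called genes on both sides.

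The small heat shock protein genes fell together while most other chaperones did not pass the test. Hsp23 was at 37.2 FPKM in the labelled recombinant, against 1995 FPKM in WT (53.6-fold lower, 14.2 to 202). Its neighbours Hsp26, Hsp27 and Hsp67Bc fell 17.5-fold, 25.03-fold and 35.9-fold, and the alpha-crystallin gene l(2)efl, on another arm, fell 4.26-fold to 174 FPKM. The Hsp60 paralog Hsp60C was the remaining call, at 0.945 FPKM in the labelled recombinant and 13.8 FPKM in WT. The mitochondrial chaperones were on the higher side without a call: Hsp60 was at 114 FPKM in the labelled recombinant and 38.4 FPKM in WT, Hsc70-5 at 75.8 FPKM in the labelled recombinant and 34.6 FPKM in WT and Trap1 at 30.8 FPKM in the labelled recombinant and 13.8 FPKM in WT. Of 28 members, 6 fell and 0 rose, and the list's median log2 fold of 0.03, whose sign turns when folds are centred on all genes, was near theirs.

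Of 13 genes for maltases, amylases and related enzymes, 10 rose and 1 fell, against 6.66% and 3.75% of all 8128 genes. Mal-A1 was at 315 FPKM in the labelled recombinant, against 5.07 FPKM in WT (62.2-fold, 17.8 to 217), and Mal-A8, Mal-A3 and Mal-A4 rose 19.1-fold, 15.1-fold and 9.22-fold. tobi, a glucosidase gene known as a target of insulin and glucagon-like signalling, rose 33.3-fold to 127 FPKM. The alpha-amylases Amy-p and Amy-d, near-identical copies, rose 10.7-fold and 5.80-fold. Amy-d was at 53.0 FPKM in the labelled recombinant, 171 in hsromega66, 34.2 in Hsp90GFP and 9.13 FPKM in WT. It was not called against either single-genotype stock. Amy-p was at 203 FPKM in the labelled recombinant, 81.5 in hsromega66, 32.3 in Hsp90GFP and 19.0 FPKM in WT, and was called against Hsp90GFP only of these 2 stocks. Mal-A5 was the exception, at 56.4 FPKM in the labelled recombinant, against 218 FPKM in WT, a 3.87-fold fall. Of 5 scavenger receptor genes 1 rose and 3 had lower levels. The riser was ninaD, a scavenger receptor for carotenoids, at 338 FPKM in the labelled recombinant, against 0.682 FPKM in WT (496-fold, 124 to 1978), with 84.2 FPKM in hsromega66 and 16.9 FPKM in Hsp90GFP. Of 10 sterol transport genes 3 rose, 0 fell and 4 had lower levels, and Npc1b, the gut sterol transporter, rose 10.5-fold. Of 4 lipase genes the gut lipase mag rose 5.43-fold to 1071 FPKM and bmm, described with the lipid genes, fell.

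Of 27 trypsin and Jonah protease genes, 10 rose and 0 fell. lambdaTry was at 156 FPKM in the labelled recombinant, against 0.965 FPKM in WT (162-fold, 35.6 to 738), kappaTry rose 38.1-fold, Ser6 48.2-fold and Jon74E 13.5-fold. Jon65Aiv, the most abundant of the midgut markers, was at 4688 FPKM in the labelled recombinant and 2018 FPKM in WT and was not called. Of 13 peritrophic matrix and mucin genes of the gut lining 5 rose and 0 fell, and 5 had lower levels without a call, among them Mur89F at 0.249 FPKM in the labelled recombinant and 7.37 FPKM in WT. Peritrophin-15a, a chitin-binding protein of the lining, was at 5561 FPKM in the labelled recombinant, against 1167 FPKM in WT (4.77-fold), and Muc55B rose 50.9-fold. Peritrophin-15a was at 3392 FPKM in hsromega66 and 1080 FPKM in Hsp90GFP, and was called in the labelled recombinant against Hsp90GFP only of these stocks. Muc55B was called against both. The lysozyme genes showed how far a difference could go without a call. LysD was at 7363 FPKM in the labelled recombinant, against 5.49 FPKM in WT and LysB at 3682 FPKM in the labelled recombinant, against 9.52 FPKM in WT (q = 0.254 and 0.136 in the authors' deposited table), and reads of these close copies may be shared. hsromega66 had 3459.9 FPKM of LysD and Hsp90GFP had 1343 FPKM, so WT was the low group for this gene. LysX was the called one and fell 18.1-fold.

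Of 58 cytochrome P450 genes 14 rose and 1 fell, and 17 passed the minimum through the labelled recombinant only. Cyp6a23 was at 299.6 FPKM in the labelled recombinant, against 8.92 FPKM in WT (33.6-fold, 9.51 to 119), Cyp28d2 rose 52.7-fold and Cyp4c3 10.4-fold. All 11 glucuronosyltransferase genes, which attach sugars to fat-soluble compounds, had higher levels, and 7 of them rose, among them Ugt36Bc (18.8-fold) and Ugt86Da (8.19-fold). Of the 11, 7 passed the minimum through the labelled recombinant only and so had to be higher, and 4 reached it in both groups. Of 30 glutathione transferase genes 4 rose and 0 fell (13.3% called, beside 10.4% of all 8128 genes), with 5 below WT. Of the 30, 8 passed the minimum through the labelled recombinant only. GstE6 and GstE5 rose 23.1-fold and 18.7-fold. GstD2 and GstT4 rose 8.11-fold and 4.09-fold over WT, and their levels of 36.2 and 213 FPKM stood beside 37.99 and 214 FPKM in Hsp90GFP. Men, malic enzyme, which makes NADPH, rose 11.9-fold to 455 FPKM. Of 24 metal handling genes 5 rose and 0 fell, with 6 below WT. Of the metal-binding metallothioneins, MtnE rose 10.98-fold, MtnB 9.38-fold, MtnD 5.996-fold and MtnA 3.51-fold, and Tsf1, transferrin, rose 6.51-fold to 719 FPKM. MtnB was at 159.6 FPKM in hsromega66 and 116 FPKM in Hsp90GFP, MtnD at 183 and 179 FPKM and MtnA at 1181 and 862 FPKM. MtnB, MtnD and MtnA were not called in the labelled recombinant against either stock, and MtnE was called against both.

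Marker genes of tissues, most of which are also members of the lists described here, are given beside them. The 5 midgut markers summed to 5839 FPKM in the labelled recombinant and 2250 FPKM in WT, and LysX alone of them was lower. The 3 muscle markers with a row summed to 7438 FPKM in the labelled recombinant and 3279 FPKM in WT, and the 3 blood cell markers to 385 FPKM in the labelled recombinant and 123 FPKM in WT. The 6 salivary gland markers summed to 28.1 FPKM in the labelled recombinant, against 46178 FPKM in WT, with Sgs1, Sgs3 and Sgs4 under 1 FPKM. The nervous system markers summed to 34.2 FPKM in the labelled recombinant and 33.4 FPKM in WT. The part of tissue share in the gene lists was not tested.

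Antimicrobial peptide genes divided into ones that rose and ones that fell. Of 24 members, a set into which the kinase gene Dsor1 also fell by its name, 6 rose and 4 fell, and 8 passed through the labelled recombinant only. DptB, a diptericin (FBgn0034407, 2R), was at 469 FPKM in the labelled recombinant, against 6.67 FPKM in WT (70.3-fold, 13.7 to 362). Dro, drosocin, rose 109-fold, AttB 43.2-fold and Dpt 21.2-fold, and IM18 rose 28.7-fold to 521 FPKM. Mtk, metchnikowin, reached 2494 FPKM in the labelled recombinant, against 40.2 FPKM in WT, and missed the call (q = 0.262 in the authors' deposited table). Of 41 immune recognition and signalling genes 2 rose and 1 fell (7.32% called, beside 10.4% of all 8128 genes), with a median log2 fold of 0.07. PGRP-SB1, a secreted peptidoglycan recognition protein, rose 58.8-fold and pirk, an inhibitor of the Imd pathway, rose 10.5-fold. PGRP-SB1 was also called higher than WT in hsromega66, at 22.3 FPKM. PGRP-SC2, an enzyme that degrades peptidoglycan, fell to 43.9 FPKM in the labelled recombinant, against 213 FPKM in WT. The fallers were peptides of another kind. IM2 was at 11 FPKM in the labelled recombinant, against 824 FPKM in WT (74.9-fold lower), IM3 fell 13.4-fold, and IM23 was listed at 0 in the labelled recombinant, against 163 FPKM in WT. These 3 genes were low in every w1118 stock, with IM2 at 12.4 FPKM in hsromega66 and 3.52 FPKM in Hsp90GFP. Drsl5 was at 5.88 FPKM in the labelled recombinant, against 903 FPKM in WT, and at 3.43 FPKM in Hsp90GFP.

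Of 11 blood cell genes 3 rose and 0 fell. The called ones were PPO1 and PPO2, the prophenoloxidases of crystal cells, which rose 4.18-fold and 5.93-fold, and vkg, a collagen IV chain, which rose 3.45-fold. PPO1 was at 296 FPKM in the labelled recombinant and 304 FPKM in Hsp90GFP, and PPO2 at 332 and 191 FPKM. Neither PPO gene was called between these groups, and both were called higher than in hsromega66. The plasmatocyte markers Hml (68.6 FPKM in the labelled recombinant and 35.98 FPKM in WT) and NimC1 (20.8 FPKM in the labelled recombinant and 16.5 FPKM in WT) were not called. TotC, a stress peptide, rose 11.9-fold to 88.3 FPKM.

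**Figure D3:**
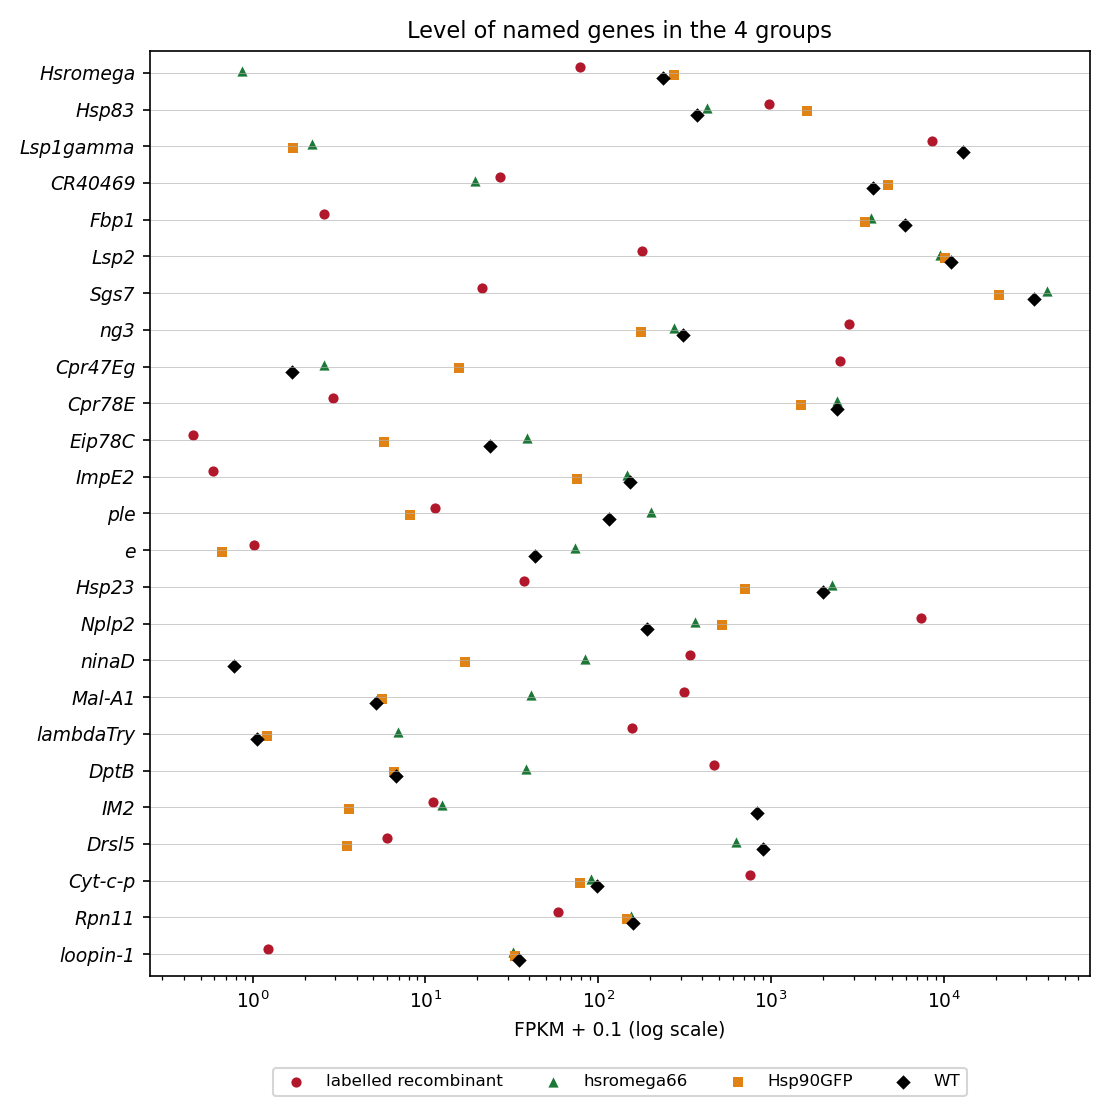
Authors' group FPKM of 25 named genes in the labelled recombinant, hsromega66, Hsp90GFP and WT, as FPKM + 0.1 on a log scale, 1 point per group and gene with no error since 1 value was given per group. Fbp1, Lsp2, Sgs7, Cpr78E and loopin-1 are low in the labelled recombinant alone, ple, e and Drsl5 are low in the labelled recombinant and Hsp90GFP, and IM2 is high in WT alone.

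Of 25 respiratory chain and ATP synthase genes 24 had higher levels in the labelled recombinant and 6 rose, with a median of 281% of the WT level. Cyt-c-p, somatic cytochrome c (FBgn0284248, 2L 16719932 to 16722644, plus strand), was at 752 FPKM in the labelled recombinant, against 98.1 FPKM in WT (7.66-fold, 2.46 to 23.9). The succinate dehydrogenase genes SdhA and SdhC rose 3.87-fold and 3.26-fold, ND75 of complex I rose 3.36-fold and ox of complex III 3.69-fold. Below WT in this list was Cyt-c-d, the cytochrome c of the male germline, at 4.25 FPKM in the labelled recombinant and 20.5 FPKM in WT. All 11 genes of the citrate cycle list had higher levels, and kdn, citrate synthase, rose 4.46-fold to 159 FPKM. fbp, fructose bisphosphatase, an enzyme of sugar synthesis that the list also held, rose 3.87-fold. All 20 glycolysis genes had higher levels too, from 129% to 1880% of WT with a median of 170%. Of these, 2 were called (10%, beside 10.4% of all 8128 genes), the glycerophosphate shuttle pair Gpdh (5.62-fold) and Gpo-1 (6.64-fold). Gpdh was at 197 FPKM in the labelled recombinant, 81.4 in hsromega66, 64.7 in Hsp90GFP and 35.1 FPKM in WT.

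Of 8 fatty acid and lipid genes 2 rose and 1 fell. ACC, acetyl-CoA carboxylase, the first step of fatty acid synthesis, rose 7.90-fold to 75.9 FPKM in the labelled recombinant, against 9.61 FPKM in WT, and AcCoAS rose 4.02-fold. Lsd-1, a perilipin of lipid droplets, fell 5.58-fold to 93.8 FPKM, and the lipase bmm, which releases stored fat, fell 3.72-fold. Sam-S, which makes the methyl donor S-adenosylmethionine, rose 5.02-fold to 483 FPKM.

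The proteasome lay below WT at every subunit, with hardly any call. All 34 members were lower, and Rpt6R, a paralog of an ATPase subunit, was the only one called, at 0.774 FPKM in the labelled recombinant, against 9.96 FPKM in WT. An unadjusted p under 0.05 was given for 17 of them. The list took in Prosap, a scaffold gene that shares the name's start. Without it and without the paralogs Rpt6R, Prosalpha6T and Rpn12R, 30 subunits stood at 36.9% to 62.0% of the WT level, with a median of 44.2%. Rpn11, the deubiquitinating subunit of the lid, was at 58.6 FPKM in the labelled recombinant, 156 in hsromega66, 147 in Hsp90GFP and 159 FPKM in WT. Rpn3 had the lowest q of these subunits (0.0842 in the authors' deposited table), at 47.5 FPKM in the labelled recombinant and 128 FPKM in WT. The 30 subunits summed to 2072 FPKM in the labelled recombinant, 4819 in hsromega66, 4577 in Hsp90GFP and 4555 FPKM in WT.

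The ribosome lay on the other side. Of 81 cytoplasmic ribosomal protein genes 77 had higher levels, at a median of 143% of WT, and of 72 mitochondrial ones 70 did, at a median of 188%. None of either list was called by Cuffdiff, and an unadjusted p under 0.05 was given for 0 of the first and 5 of the second. RpL41 was at 13729 FPKM in the labelled recombinant and 9170.4 FPKM in WT, and mRpS5 at 145 FPKM in the labelled recombinant and 95.3 FPKM in WT. All 19 tRNA synthetase genes also lay above WT, from 117% to 221%, without a call and with 0 at an unadjusted p under 0.05. With folds centred on the cytoplasmic ribosomal protein genes, every log2 fold shifts by -0.51. On that scale 24 of the respiratory genes, 62 of the mitochondrial ribosomal ones, 18 of the glycolysis ones, 12 of the tRNA synthetase ones and none of the proteasome ones, in a count over these lists, were above WT. The vacuolar proton pump had 20 of 21 genes above WT and 2 called, Vha100-4 (9.61-fold) and Vha100-5 (4.15-fold). That is 9.52% called, beside 10.4% of all 8128 genes. Lysosomal and autophagy genes lay mostly below, 24 of 29, and cathD, the protease cathepsin D, fell 4.62-fold to 167 FPKM.

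**Figure D4:**
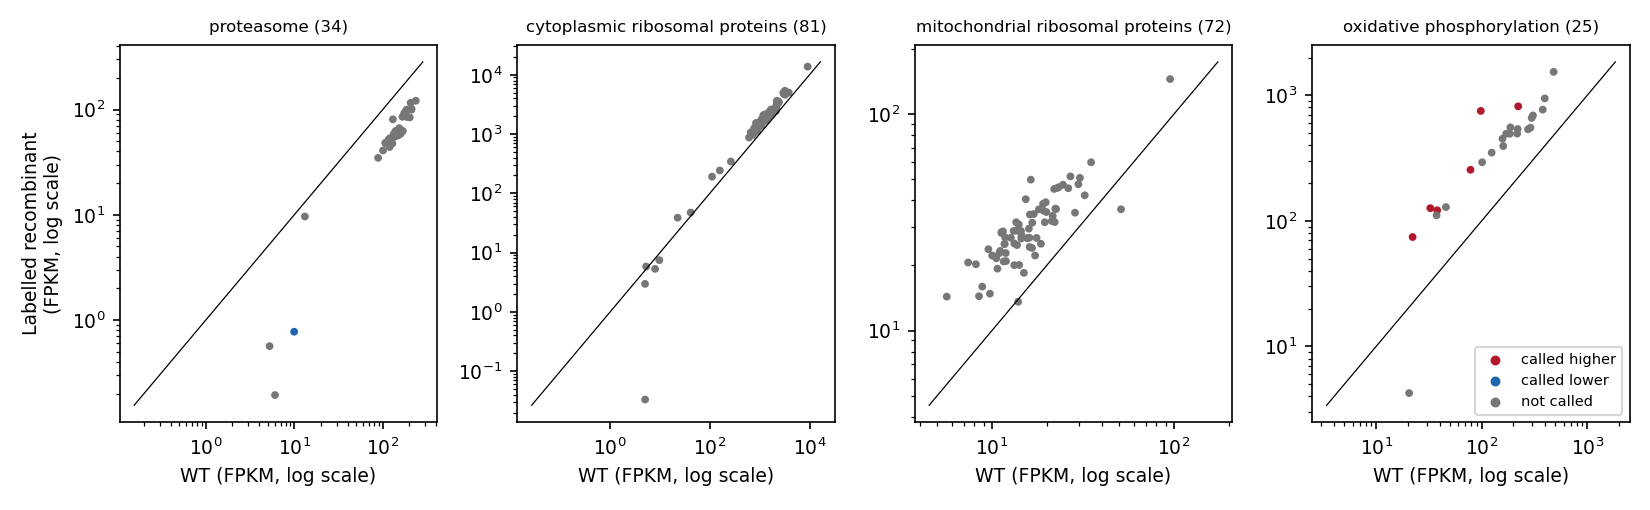
FPKM of each gene of 4 multi-protein assemblies in WT (x axis) and the labelled recombinant (y axis), both on log scales, with the line marking equal levels and called genes in colour. The 30 proteasome subunits lie below the line at 36.9% to 62.0% of WT, and nearly all ribosomal and respiratory genes lie above it.

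In muscle, 21 of 24 sarcomere genes had higher levels and 3 rose (12.5% called, beside 10.4% of all 8128 genes). Mlp60A, a muscle LIM protein, was at 3119.6 FPKM in the labelled recombinant, against 631 FPKM in WT (4.94-fold), the troponin C gene TpnC47D rose 6.38-fold and Unc-89 rose 3.43-fold. Mhc, the myosin heavy chain, was at 1531 FPKM in the labelled recombinant and 501 FPKM in WT, without a call. hsromega66 had 174 FPKM of Mhc, the lowest of the 4 groups.

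For genes of growth, polarity and the imaginal discs the called share is given beside 10.4% of all 8128 genes. It was 7.14% for cell polarity (1 of 14), 2.44% for replication and cell cycle (1 of 41) and 12.5% for disc patterning (2 of 16). For neuroblast fate it was 15.4% (2 of 13) and for cell death 18.2% (2 of 11). The gene dac counts in both the disc and the neuroblast list. These lists are small, and no share was tested against that of all genes. l(2)gl, a tumour suppressor of cell polarity near the tip of 2L, was at 0.0516 FPKM in the labelled recombinant, against 59.6 FPKM in WT (1155-fold lower, 62.8 to 21263). The other polarity genes were not called, among them scrib (29.2 FPKM in the labelled recombinant and 21.8 FPKM in WT) and dlg1 (26.2 FPKM in the labelled recombinant and 20.9 FPKM in WT). None of 18 Hippo pathway genes and none of 15 JNK genes was called by Cuffdiff, and an unadjusted p under 0.05 was given for 2 of the first and 3 of the second. sd, the transcription factor of the Hippo pathway, was at 32.1 FPKM in the labelled recombinant and 29.2 FPKM in WT, and kay, the fly Fos protein, at 49.7 FPKM in the labelled recombinant and 32.8 FPKM in WT. Of 16 disc patterning genes, 14 had lower levels and 2 fell, Dll, the leg selector gene (5.65-fold), and dac (4.996-fold). Of the 16, 6 passed the minimum through WT only, Dll among them, and so had to be lower. CycB, a mitotic cyclin, fell 3.25-fold and was the single call of 41 replication and cell cycle genes. Of 13 neuroblast fate genes 12 had lower levels, with a median log2 fold of -0.55. Of the 13, 5 passed the minimum through WT only and 1 through the labelled recombinant only. The temporal factor gene cas was the 1 above WT and rose 6.52-fold to 6.24 FPKM, and dac was the 1 that fell. chinmo, from the JNK list, was at 29.1 FPKM in the labelled recombinant and 9.77 FPKM in WT without a call. None of 13 neuronal genes was called by Cuffdiff, also at an unadjusted p under 0.05. Of 11 cell death genes 1 rose and 1 fell: the effector caspase gene Ice fell 3.80-fold and Damm, another caspase, rose 3.72-fold.

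Genes of the male germline had lower levels with few exceptions. Of 27 members, 10 fell, 26 had lower levels and 23 passed the minimum through WT only, so the count carries the choice of genes with it. loopin-1, a sperm leucyl aminopeptidase, was at 1.13 FPKM in the labelled recombinant, against 34.5 FPKM in WT (30.6-fold lower, 7.31 to 128), S-Lap1 and S-Lap7 of the same family fell 32.04-fold and 28.8-fold, and Mst84Dc, a sperm tail gene, fell 35.4-fold. hsromega66 and Hsp90GFP had 32.2 and 32.8 FPKM of loopin-1, beside 34.5 FPKM in WT. Also called lower were male germline copies of widely used genes, picked from other lists. TrxT was at 2.18 FPKM in the labelled recombinant, against 21.8 FPKM in WT, and eIF4E-5 and eIF4E-3 fell 18.8-fold and 5.31-fold. roX1 and roX2, the X chromosome dosage RNAs made in males, were at 330.4 and 264 FPKM in the labelled recombinant, against 106 and 96.5 FPKM in WT, and neither was called. The sex of the pooled larvae is not given in the labels, and its part in these values was not tested.

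Nplp2 (FBgn0287423, 3L 13356376 to 13357223, plus strand, 4 exons), named as a neuropeptide-like precursor, was at 7369 FPKM in the labelled recombinant, against 191 FPKM in WT (38.6-fold, 10.6 to 141), with 361 FPKM in hsromega66 and 523 FPKM in Hsp90GFP. It was the only call of 14 peptide hormone genes (7.14%, beside 10.4% of all 8128 genes). CG32198 rose 18.9-fold to 4881 FPKM and CG16712 rose 15.8-fold to 3827 FPKM. Dbi, an acyl-CoA binding protein listed in the annotation as Acbp2, rose 18.2-fold to 1775 FPKM, and its neighbours CG15829, CG8628 and CG8629 (annotated Acbp6, Acbp3 and Acbp4) rose 47.8-fold, 9.12-fold and 64.1-fold. Among genes known by number, CG11350 rose 1429-fold to 907 FPKM and CG32284 rose to 2622 FPKM in the labelled recombinant, against 10.3 FPKM in WT. CG42500 was the most abundant faller without a name, at 657 FPKM in the labelled recombinant, against 6644 FPKM in WT (10.1-fold lower). Of 3613 such genes 332 rose and 170 fell (13.9% called, beside 10.4% of all 8128 genes).

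Some called genes lay side by side. Counting 3 or more members in a row with calls in 1 direction, there were 27 runs of higher genes and 4 of lower genes, which held 111 of the 846 called genes. Many runs joined genes of different or unnamed families, such as PPO1 with CG5084 and CG10910, and how many runs chance gives was not tested. The runs described here are of named families or are the longest, with 5 genes. The trypsin genes lambdaTry, kappaTry, zetaTry, etaTry and thetaTry rose over 5.92 kb of 2R, by 5.20-fold to 162-fold. A P450 run of Cyp6a23, Cyp6a9, Cyp6a20, Cyp6a21 and Cyp6a8 rose over 13.2 kb of 2R, by 6.99-fold to 33.6-fold. On 3L, Hsp67Bc, Hsp26, Hsp23 and Hsp27 fell over 14.2 kb, with the annotated antisense gene CR43481 among them, whose reads cannot be told from the sense gene's unless the counting used strand. On 3R, CG5866, CG33333, CG42834, CG42835 and CG14332 fell over 6.46 kb, and all but CG5866 were listed at 0 in the labelled recombinant. CG33333 was at 263 FPKM in hsromega66, 197 FPKM in Hsp90GFP and 429 FPKM in WT. A further run of 4 lysosomal mannosidase genes, CG9463, CG9465, CG9466 and CG9468, rose 21.7-fold to 27.3-fold.

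**Figure D5:**
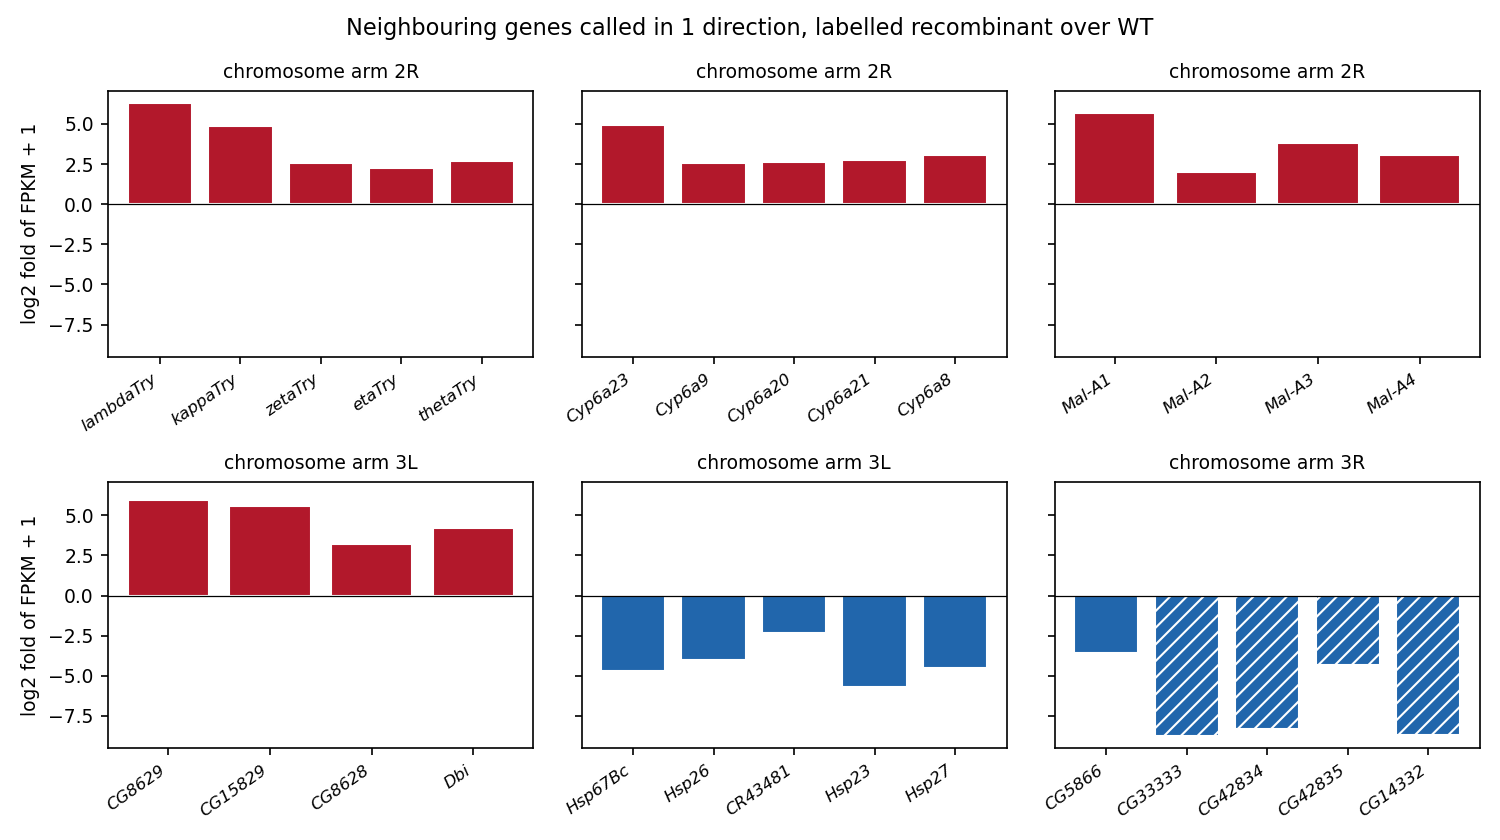
Log2 fold of FPKM + 1 (labelled recombinant over WT) for the genes of 6 runs of neighbouring called genes, in their order along the chromosome arm, with red bars higher, blue bars lower and hatched bars listed at 0 FPKM in the labelled recombinant. Trypsin, P450, maltase and acyl-CoA binding genes rose in the first 4 panels, and the small heat shock and CG genes fell in the last 2.

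By chromosome arm, the called share was 8.74% on 2L, 11.6% on 2R, 10.9% on 3L, 12.2% on 3R and 7.65% on X, beside 10.4% overall. None of 68 genes on chromosome 4 was called by Cuffdiff, with 4 at an unadjusted p under 0.05. The single Y row, Su(Ste):CR42430, a suppressor RNA of the Stellate genes, rose to 7.59 FPKM in the labelled recombinant, against 0.677 FPKM in WT.

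The labelled recombinant was also set directly against each single-genotype stock, which shares its w1118; Sp/CyO' background. These comparisons share the labelled recombinant's libraries with the one above, so they are no independent support for it. Against hsromega66, 716 of 8103 genes were called (8.84%), 425 higher (5.24%) and 291 lower (3.59%). Against Hsp90GFP, 647 of 8098 genes were called (7.99%), 418 higher (5.16%) and 229 lower (2.83%). Fbp1, Sgs7, Sgs5, Eig71Ee, Lsp2, Cpr78E, Hsp23 and loopin-1 were called lower against both stocks. Called higher against both were Cpr47Eg, Lcp65Ag3, Nplp2, ninaD, Mal-A1, lambdaTry, DptB, Cyp6a23 and Cyt-c-p. Other changes against WT were not called against these stocks. MtnB gave q = 0.988 against hsromega66 and 0.701 against Hsp90GFP in the authors' deposited table, and IM2 gave 0.994 and 0.402. ple was called against hsromega66 and not against Hsp90GFP (q = 0.808 in the authors' deposited table), and CR40469 was called against Hsp90GFP and not against hsromega66 (q = 0.934 in the authors' deposited table). Whether such pairs of comparisons differ was not tested.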

How the data were processed

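RNA of 5 pooled whole wandering larvae per library was depleted of ribosomal RNA and sequenced as stranded paired reads of 50 bases, 2 libraries per group, per the labels' protocols. TopHat, Bowtie, Cufflinks and Cuffdiff 2.1.1 with build dm6 are named in the submitters' processing notes, which give no settings. The deposited tables hold, per the file headers, 1 FPKM per gene and group, a log2 ratio, a test statistic (here a score), a p-value and a q-value, all made by the authors. No source used here gives the depth of a library, so no counting interval can be had. Of the 6 tables, the one of hsromega66 against Hsp90GFP was not used here. The rest was computed with Python 3.11.15 (pandas 2.3.3 and numpy 2.4.6 for tables, scipy 1.17.1 for tests, figures by matplotlib 3.10.9).

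A gene was called where the authors' deposited q was under 0.05. Folds in the text are ratios of FPKM, ranks use log2(FPKM + 1), and 95% intervals use the standard error that the deposited log2 ratio and test statistic imply. These intervals can exclude 1 for a gene that was not called. A gene listed at 0 gets no fold. Positions are the files' own on dm6, and gene identifiers, strand, exon numbers and newer names come from the Ensembl annotation of BDGP6.54, which shares these coordinates. The span of 95 of 364 genes in the tables behind the text overlaps another row, and where reads were split between such rows is not given. p-values rest on the spread between these pools, which may be technical, but are not a measure of that spread alone. The implied standard error was large for some rows that share a locus with others, at 7.37 for LysD. Its median over all genes was 0.895, and PPO1, which also shares a locus, had 0.860. The computations were tested on simulated data.

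The genes and the functional lists were chosen with earlier results of these data known, the lists were matched by gene symbol and were not trimmed. Named by rule were the targeted genes, w and l(2)gl, the 12 highest and 12 lowest called folds, up to 4 called genes of each list (or, with no call, its 2 most abundant), the 10 most abundant genes of each group, the largest called fold of each arm and the tissue markers. Chosen after their values were seen were Amy-d, Amy-p, AttB, br, CG15829, CG16712, CG32198, CG42500, CG42835, CG5866, CG8628, CG8629, CG9463, CG9465, CG9466, CG9468, CG10910, CG5084, chinmo, Cpr11A, Cpr49Ac, CR43481, Cyp4c3, Cyp6a20, Cyp6a21, Cyp6a9, Dat, Dbi, Ddc, dlg1, Dpt, DptB, EcR, Eip75B, etaTry, ftz-f1, Hsc70-5, Hsp60, Hsp60C, IM18, IM3, Kr-h1, l(2)efl, Lcp65Aa, Lcp65Ae, LysB, LysD, Mal-A3, Mal-A4, Mal-A5, Mtk, MtnA, Mur89F, ng1, ng2, ng3, obst-A, Prosalpha6T, Prosap, Rfabg, Rpn11, Rpn12R, Rpn3, scrib, SdhC, thetaTry, Trap1, TwdlO, yellow-e and zetaTry.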

Additional observations from a re-analysis of the deposited data

Results flagged for a closer look

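The authors' program did not test 14 single-symbol rows at 5 FPKM or more. Of these, 3 held RNA in the labelled recombinant and were listed at 0 in WT, 10 were the other way round, such as mir-978 (0 in the labelled recombinant and 28.7 FPKM in WT), and 1, snoRNA:nop5-x16-a, was at 11.9 FPKM in the labelled recombinant and 10.5 FPKM in WT. CR41602, annotated as a ribosomal RNA pseudogene, was at 22248 FPKM in the labelled recombinant, 11999 FPKM in hsromega66, and was listed at 0 in Hsp90GFP and WT. mir-34 was at 14.1 FPKM in the labelled recombinant and 48.3 FPKM in Hsp90GFP, and was listed at 0 in hsromega66 and WT. mir-988 was at 14.1 FPKM in the labelled recombinant and was listed at 0 in the other 3 groups. None of these differences was tested.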

How the results depend on the processing

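No paired analysis was possible because the tables hold 1 value per group, and for the same reason leaving out a replicate could not be run. The 541 genes higher than WT became 359 at a q under 0.01, 352 with a z test from the implied standard error, 341 with that test on median-centred folds, and 336 with 5 FPKM required in both groups, a setting chosen after seeing the data. The 305 lower genes became 169 at a q under 0.01, 193 at a minimum of 20 FPKM, 485 without a minimum and 99 with 5 FPKM required in both groups. At a q under 0.01, the genes higher than hsromega66 went down to 223 and the lower ones to 170, and those against Hsp90GFP to 255 and 126. Of 66 lists with 5 or more members, 44 had a median above 0, and 26 had one after centring on the cytoplasmic ribosomal protein genes. Of 229 called genes in the tables behind the text, 64 were not called under a q of 0.01 and 64 under the z test, and none turned its direction there or under median centring. The other planned settings left these counts within 1.5 times of the reported ones. The cause of these shifts was not tested.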

Other observations

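Several regulatory gene groups held no called gene in the labelled recombinant against WT, beside 10.4% of all genes. They are among 20 of 72 lists without a call, and these groups are small. A log2 ratio under 1.55 in size was not called in any gene, so smaller differences could not show as calls. None of 17 genes for omega speckle RNA-binding proteins, which bind the hsromega RNA, was called by Cuffdiff, 14 of them lay below WT, and the median log2 fold was -0.29. None of 30 splicing factor genes was called by Cuffdiff, with 26 below WT. The 16 insulin pathway genes had no call by it and a median log2 fold of 0.14. An unadjusted p under 0.05 was given for 0 of the omega speckle genes, 1 of the splicing factor genes and 1 of the insulin pathway genes.

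Of 16 transport genes of the Malpighian tubule, the larval kidney, 4 rose and 1 fell (31.3% called, beside 10.4% of all 8128 genes). Of 24 tetraspanin genes, which encode small membrane proteins, 4 rose and 1 fell (20.8% called). Of 208 genes with a CR number, matched by symbol, 4 rose and 8 fell (5.77% called, under the share of all genes). Their faller CR17567 is annotated as protein-coding. The non-coding gene CR31084 was at 874 FPKM in the labelled recombinant, against 66.7 FPKM in WT (13.1-fold). The non-coding RNA pncr015:3L was listed at 0 in the labelled recombinant, against 259 FPKM in WT, and Hsp90GFP had 0.416 FPKM. Of 472 rows that merge several genes, which were left out of the 8128, 21 were called higher and 19 lower in the labelled recombinant than in WT. Of the 8128 genes, 6.66% were called higher and 3.75% lower.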
